A study of Mus musculus with 30 samples.

Results

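The genes described here are the secreted Wnt ligands, their Frizzled receptors, the R-spondins, the Sfrp and Dkk antagonists, and 8 target genes and TCF factors of the pathway. They were chosen by symbol from the table of mouse genes, which gave 48 of 20563 genes. There are 18 Wnt ligands, 10 Frizzled receptors (Fzd), 4 R-spondins (Rspo), 4 Sfrp antagonists, 4 Dkk antagonists, and Axin2, Lef1, Sp5, Nkd1, Lgr5, Tcf7, Tcf7l1 and Notum. Of the 48, 44 reached a value of 10 in at least 2 of 30 libraries and were tested. Wnt2, Wnt10a, Wnt16 and Dkk4 did not, and none of these 4 exceeded 11.2 in any library.

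RNA came from mouse embryonic stem cells grown with the cytokine LIF (day 0) and from embryoid bodies, aggregates that differentiate in suspension without LIF, at day 4 and day 8. Per the labels, the lines were Pali wild type with 2 mutants, Pali1_sKO (genotype Pali1-/-) and Pali_dKO (Pali1-/-, Pali2-/-), and C129 wild type beside a line with a gene trap in Aebp2 (Aebp2gt/gt). Each of the 15 groups of line and day held 2 libraries, labelled biological duplicates. PALI1 and PALI2, encoded at the Lcor and Lcorl loci, bind Polycomb repressive complex 2, the enzyme that marks silenced developmental genes by methylating histone H3. AEBP2 binds the same complex. The day 0 groups share culture with LIF on gelatin, and the day 4 and day 8 groups share growth without it. All groups share serum-containing medium. Lines, not treatments, carry the mutations. The sources used here do not give the number of clones behind each genotype, so a difference between lines cannot be told apart from a difference between clones. C129 wild type was taken as the control of the gene trap line from the order of the series design.

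Wnt proteins are lipid-modified secreted signals that bind Frizzled receptors on the receiving cell. In the canonical branch this stops the breakdown of β-catenin, which enters the nucleus and acts with TCF and LEF proteins on target genes. R-spondins keep Frizzled receptors on the cell surface, Sfrp proteins bind Wnts, and Dkk1 blocks the LRP co-receptors. In embryonic stem cells Wnt signalling helps to sustain self-renewal, and during differentiation it directs cells to the primitive streak and to posterior fates.

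Column totals ran from 15470082 to 18336791 normalised counts, and duplicates correlated at 0.948 to 0.961 on the log2 scale, across genes that are not independent of each other. Aebp2 measured 2611 and 2784 in C129 wild type and 30.5 and 35.2 in the gene trap line at day 0, and fell in the trap by 6.20, 5.56 and 5.59 on the log2 scale at days 0, 4 and 8. Lcor and Lcorl did not pass the test in either Pali mutant, and a value over the whole gene does not check a deleted part. Some values of 0 may be failed estimates, since 2 genes of ribosomal proteins, which all cells need, were listed at 0 in 28 (Rps21) and 14 (Rps29) of 30 libraries. Ezh2, the methyltransferase of PRC2, was listed at 0 in 23 and reached at most 82.7. Replicate 2 of Pali wild type at day 8 stood apart from its duplicate, with a sum of 12531 against 303.3 over 10 markers of extraembryonic endoderm, so each count of members that uses it is also given without it. The day 4 pair of this line differed in the same sum, at 147.7 in replicate 1 and 4515 in replicate 2. The samples are bulk RNA, in which fewer cells of a type and less RNA per cell cannot be told apart.

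Upstream sequences of Sp5, Rspo1 and Wnt8b are shown because these genes, a target, an R-spondin and a ligand, were among those that separated the lines at day 8. RefSeq promoters (GRCm38.p6) were found for 32 of the 48 members, 39 promoters in all, each covering 250 bases before the start and 50 after it. Both strands were searched for CTTTGAT and CTTTGAA, letters that TCF and LEF proteins are known to bind. A match was present in 4 of 39 member promoters (10.3%), those of Sp5, Dkk1, Wnt11 and Wnt5b, against 2842 of 32851 promoters of all genes (8.65%). The Sp5 window, chr2:70474673-70474922 (plus strand), is printed 5′ to 3′ with the match in capitals, which lies 104 bases before the start.
Sp5: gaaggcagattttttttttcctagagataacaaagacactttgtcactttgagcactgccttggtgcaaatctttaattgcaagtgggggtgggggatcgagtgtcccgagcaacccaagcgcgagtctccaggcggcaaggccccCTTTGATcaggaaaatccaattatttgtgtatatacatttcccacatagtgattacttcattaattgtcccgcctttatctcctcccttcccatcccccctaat
The other pair is printed with CG dinucleotides in capitals. The Rspo1 window, chr4:124986180-124986429 (plus strand), held 22 of them, and the Wnt8b window, chr19:44493222-44493471 (plus strand), held 5.
Rspo1: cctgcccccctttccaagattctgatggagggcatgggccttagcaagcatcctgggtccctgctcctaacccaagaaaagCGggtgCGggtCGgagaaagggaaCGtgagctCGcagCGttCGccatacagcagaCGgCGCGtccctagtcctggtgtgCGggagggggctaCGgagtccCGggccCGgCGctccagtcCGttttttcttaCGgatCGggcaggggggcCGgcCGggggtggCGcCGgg
Wnt8b: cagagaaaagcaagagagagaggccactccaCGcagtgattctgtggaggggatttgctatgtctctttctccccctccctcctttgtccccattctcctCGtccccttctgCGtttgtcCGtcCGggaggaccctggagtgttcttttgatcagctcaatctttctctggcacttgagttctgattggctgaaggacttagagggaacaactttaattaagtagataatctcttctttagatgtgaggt
Over the full 300 bases, member promoters had a median of 24 CG dinucleotides and a GC content of 67.3%, against 7 and 52.7% over promoters of all genes. Promoters of 41 other Wnt pathway genes had a median of 22.5. A match or its absence describes these letters in this window and nothing about the factor. Some members lie close to another in the GRCm38 annotation (GENCODE M21). Wnt6 and Wnt10a on chromosome 1 are 6.2 kb apart, Wnt3a and Wnt9a on chromosome 11 are 16.2 kb apart, and Wnt9b and Wnt3, also on chromosome 11, are 24.3 kb apart.

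A few receptors and antagonists led the members in wild-type stem cells. Per kilobase of exon, the scale used to compare genes, Fzd7 stood at 750.2 and Fzd5 at 649 normalised counts in Pali wild type at day 0, and Sfrp1 at 732. Other receptors and antagonists were far lower, such as Fzd8 at 11.5, Dkk1 at 7.81 and Fzd1 at 6.41. The highest ligand was Wnt7b, at 12.3 per kilobase in Pali wild type and 21.9 in C129, where Wnt6 followed at 14.8. The R-spondins were led by Rspo1 at 23.3 per kilobase, with Rspo3 at 0.878 and Rspo2 listed at 0 in both libraries. C129 wild type had the same 2 Frizzled receptors in front at day 0, Fzd5 at 580 and Fzd7 at 523 per kilobase. The exon lengths are unions over annotated transcripts, so a per-kilobase level is approximate where a gene uses 1 short isoform.

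From day 0 to day 8 most ligands and R-spondins rose in the wild types. In Pali wild type 20 members rose and 1 fell (of all genes, 14% higher and 11.7% lower, 25.8% in all), with a median log2 difference of 1.16 over the members and 0.04 over all genes. In C129 wild type 31 rose and 4 fell (of all genes, 23.4% higher and 22.4% lower, 45.8% in all), with medians of 2.02 and 0.02. At day 4, 13 rose and 6 fell in Pali wild type (of all genes, 14.7% higher and 12.7% lower, 27.3% in all), and 11 rose and 5 fell in C129 (of all genes, 14% higher and 15% lower, 29.1% in all). All differences of this kind are log2 differences from a limma model of log2(value + 4), which understates the change of low genes, and a member is called at a Benjamini-Hochberg adjusted p under 0.05 over 15712 genes. The Pali wild type day 4 count fell from 19 to 12 without either of its day 4 libraries or without day 0 replicate 2. Leaving out any 1 library moved the day 8 counts to between 18 and 21 in Pali wild type, with 21 without day 8 replicate 2, and to between 28 and 32 in C129.

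**Figure D1:**
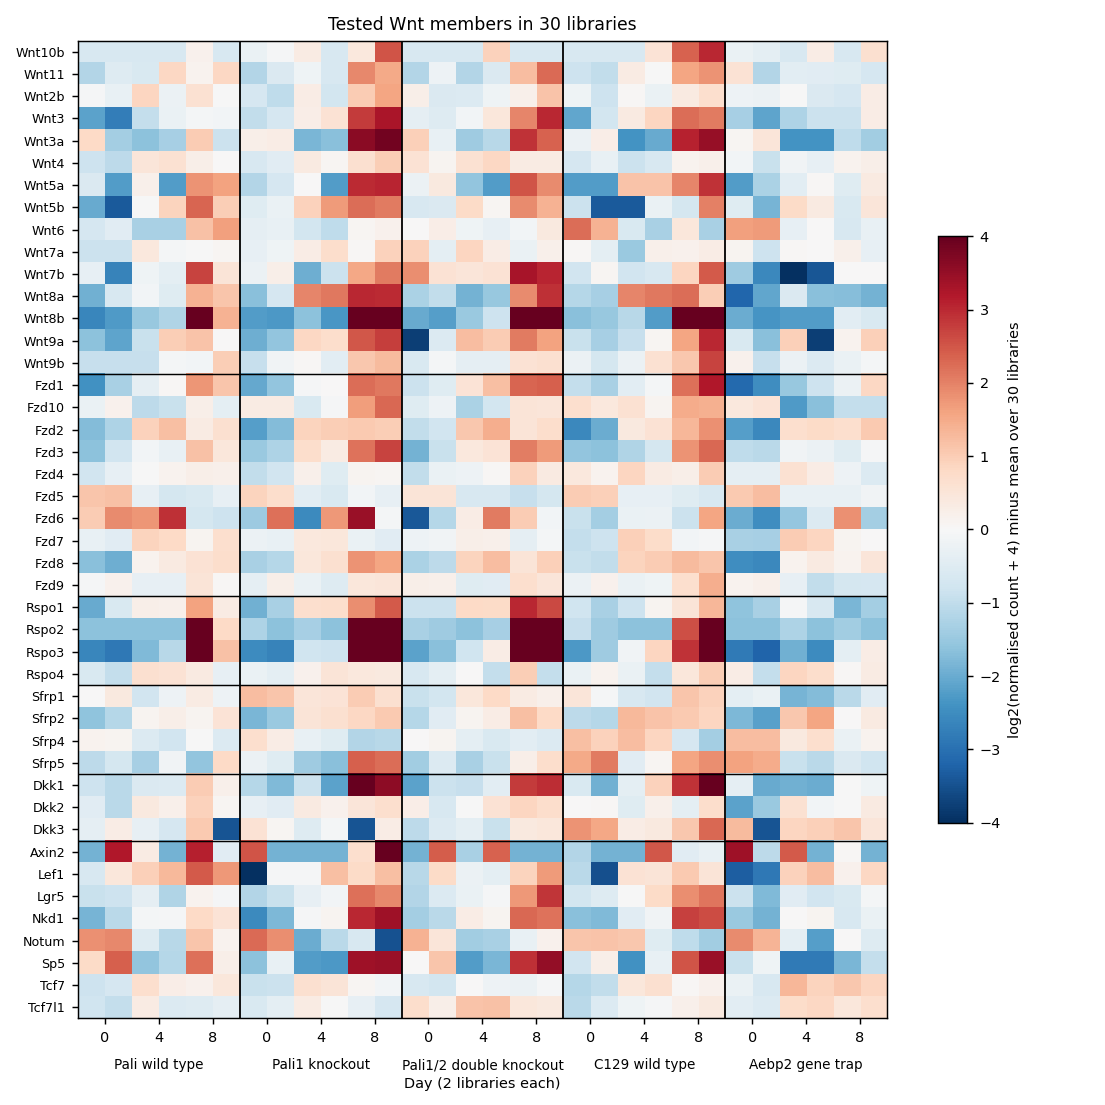
Heat map of the 44 tested members (rows, by role) in 30 libraries (columns, by line and day). Colour gives log2(normalised count + 4) minus the gene's mean over all libraries, drawn at the end colour beyond 4 in either direction. Many ligands and R-spondins are red, above their mean, in the day 8 columns of both Pali mutants and C129 and not in those of the Aebp2 gene trap.

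Among the ligands, 8 of 15 tested rose by day 8 in Pali wild type and 12 in C129, where 1 fell. Wnt8b, a ligand known from the developing forebrain, measured 0 and 1.07 at day 0 and 821 and 60.0 at day 8 in Pali wild type. In C129 it measured 3.77 and 4.56 and then 499.6 and 1096. The day 0 and day 8 libraries did not overlap in either line, while the Pali day 8 pair differed more than 10-fold. The log2 differences were 5.67 ± 0.74 SE, adjusted p = 2.58e-05 in Pali and 6.51 ± 0.74 SE, adjusted p = 1.25e-06 in C129. By group means per kilobase Wnt8b was the leading ligand at day 8 in both lines, at 127 in Pali wild type and 229 in C129, followed by Wnt7b at 108 and 98.8. The Pali mean was drawn from a pair at 821 and 60.0, so the rank there rests on replicate 1.

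Wnt3, the ligand needed for the primitive streak, measured 2.19 and 0 at day 0, 9.97 and 18.7 at day 4 and 22.1 and 21.1 at day 8 in Pali wild type. In C129 it measured 2.52 and 12.4, then 30.8 and 45.3, then 124 and 111. Both lines rose without overlap between day 0 and day 8, by 2.36 ± 0.48 SE, adjusted p = 0.00142 and 3.55 ± 0.48 SE, adjusted p = 8.38e-06. Wnt3a, which sustains posterior growth of the embryo, took another course in C129. It measured 13.8 and 21.5 at day 0, 0 and 1.26 at day 4 and 175 and 230.4 at day 8, and so fell and then rose. The differences from day 0 were -2.22 ± 0.60 SE, adjusted p = 0.00877 at day 4 and 3.26 ± 0.60 SE, adjusted p = 0.000205 at day 8. Without 1 library the C129 day 4 difference was at -2.47 to -1.96, and the call was lost in some of these fits. In Pali wild type Wnt3a measured 32.9 and 4.27 at day 0, averaged 3.55 at day 4 and measured 39.1 and 7.78 at day 8. It was called there neither at day 4 (-1.22, adjusted p = 0.149) nor at day 8 (0.37, adjusted p = 0.724).

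Wnt8a, a ligand of the early streak, rose in both wild types. It measured 5.48 and 19.2 and then 90.3 and 73.3 in Pali (2.52 ± 0.52 SE, adjusted p = 0.00156), and 12.6 and 10.4 and then 166 and 68.1 in C129 (2.84 ± 0.52 SE, adjusted p = 0.000198). In C129 it already stood at 137 and 153 at day 4. Wnt6 moved in opposite directions, rising from 2.19 and 3.20 to 18.1 and 26.7 in Pali (1.96 ± 0.44 SE, adjusted p = 0.00306) and falling from 42.8 and 22.1 to 9.44 and 0 in C129 (-2.25 ± 0.44 SE, adjusted p = 0.000375, and -1.38, still called, without C129 day 8 replicate 2), and the difference between the courses was not tested. Wnt5a, a ligand of the non-canonical branch, was listed at 0 in both C129 day 0 libraries and measured 68.6 and 135 at day 8. Wnt10b was likewise listed at 0 in both and measured 28.3 and 46.2. Of the other ligands, Wnt4, Wnt5b and Wnt7b rose in both lines, Wnt5a also rose in Pali wild type, and Wnt9a, Wnt9b and Wnt11 rose in C129. Wnt2b and Wnt7a were called in neither line at day 8. Wnt5b in C129 and Wnt7b in both lines rested on single libraries: without C129 day 8 replicate 2 they were at 1.41 and 1.19 there, and without Pali day 0 replicate 2 Wnt7b was at 1.93, none of them called. Without 1 library Wnt4 and Wnt9a in C129 were at 0.46 to 0.83 and 2.70 to 4.13, and Wnt5a in Pali at 2.28 to 3.92. Each of these calls was lost in at least 1 such fit.

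Among the Frizzled receptors 5 of 10 rose and 1 fell by day 8 in Pali wild type, and 7 rose and 1 fell in C129. Fzd5 measured 4409 and 4562 at day 0 and 1603 and 1256 at day 4 in Pali wild type, and 4094 and 3925 and then 1601 and 1609 in C129. It fell in both lines by day 4, by 1.66 and 1.32 on the log2 scale (adjusted p = 2.62e-08 and 4e-07), and was also called lower at day 8 in both. Fzd2 rose from 210.4 and 296 to 1337 and 1640.0 in Pali (2.55 ± 0.23 SE, adjusted p = 4.08e-07) and from 114 and 174 to 929 and 1058 in C129 (2.78 ± 0.23 SE, adjusted p = 1.78e-07). Fzd8 rose over the same days from 75.6 and 62 to 279 and 322 in Pali (2.07) and from 135 and 126 to 470.4 and 509 in C129 (1.88). Fzd7 rose from 3599 and 3201 to 8067 and 7560.0 in Pali (1.20) and from 2248 and 2492 to 8491 and 7242 in C129 (1.73). The day 0 and day 4 libraries of these 4 receptors did not overlap in either line. At day 8 Fzd2 measured 894 and 1108 in Pali and 1795 and 2516 in C129, and Fzd8 374 and 409 in Pali and 612 and 544 in C129. Both were called higher than at day 0 in each line.

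Fzd3, a receptor of axon guidance and planar polarity, rose in both wild types by day 8. It measured 585 and 1064, then 1673 and 1471, then 4083 and 2502 at days 0, 4 and 8 in Pali wild type, and 613 and 586, then 796 and 1122, then 6304 and 9003 in C129. The day 8 differences from day 0 were 2.01 ± 0.33 SE, adjusted p = 0.00021 and 3.64 ± 0.33 SE, adjusted p = 8.86e-08. At day 4 it was already higher in Pali (0.99 ± 0.33 SE, adjusted p = 0.0311), a call lost without day 0 replicate 1 (0.56), and was not called in C129. Fzd1 measured 15.3 and 38.5, then 77 and 103, then 344 and 221 in Pali, and 49.1 and 38.4, then 72.7 and 94.3, then 475 and 941 in C129. It rose by 3.29 and 3.83 by day 8 (adjusted p = 2.55e-05 and 1.04e-06). At day 4 Fzd1 was higher in Pali by 1.70 (adjusted p = 0.00615), and by 1.13 and not called without day 0 replicate 1. Fzd9 and Fzd10 passed the test in C129, by 1.10 and 0.90, and not in Pali wild type, and the difference between these courses was not tested. Without C129 day 8 replicate 2 Fzd9 was at 0.71 and not called. Fzd10 measured 376 and 512, then 215 and 241, then 529 and 343 in Pali, where it fell at day 4 (-0.93 ± 0.27 SE, adjusted p = 0.0144). Fzd4 and Fzd6 were called in neither line at day 8.

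**Figure D2:**
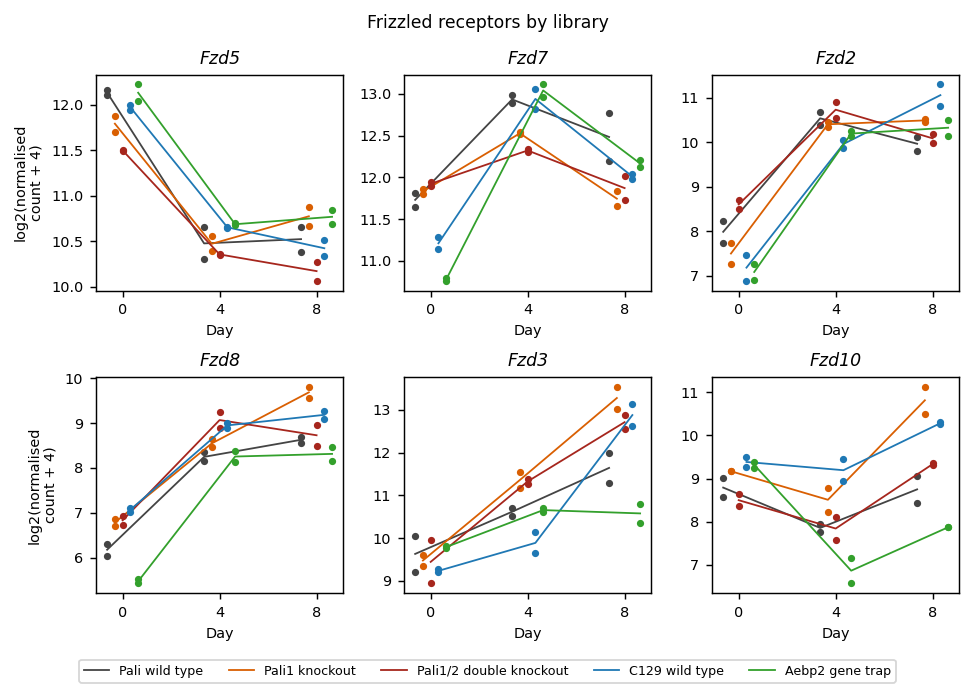
Level of 6 Frizzled receptors at days 0, 4 and 8 (horizontal axis) as log2(normalised count + 4) (vertical axis), with 1 point per library and lines through the group means. Fzd5 is lower at days 4 and 8 than at day 0 in all 5 lines, and at day 8 the Aebp2 gene trap points of Fzd3 and Fzd10 lie below all others.

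Of the R-spondins 3 of 4 rose in both wild types. Rspo3 measured 3.29 and 2.14 at day 0 and 708 and 94.5 at day 8 in Pali wild type, and 5.03 and 12.4 and then 326 and 748 in C129. It rose by 5.31 ± 0.67 SE, adjusted p = 1.78e-05 in Pali and 5.36 ± 0.67 SE, adjusted p = 3.57e-06 in C129, without overlap. Both Pali day 0 libraries listed Rspo2 at 0. It measured 225 and 17.8 at day 8, and it measured 2.52 and 0.651 and then 70.8 and 264 in C129. Rspo1 measured 23 and 67.3, then 123 and 122, then 327 and 133 in Pali, and 59.1 and 40.4 and then 151 and 271 in C129. It rose by day 8 by 2.28 and 1.97 (adjusted p = 0.00139 and 0.00186). Rspo4 stayed between 0 and 11.5 in all 30 libraries and was not called.

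Of the antagonists, Sfrp2 rose in both wild types, and Sfrp1 and Dkk1 in C129. Sfrp2 measured 252 and 354 and then 832 and 1138 in Pali (1.69 ± 0.23 SE, adjusted p = 4.65e-05), and 372 and 353 and then 1627 and 1401 in C129 (2.05 ± 0.23 SE, adjusted p = 1.39e-06). Dkk1 measured 25.2 and 7.82 and then 321 and 882 in C129 (4.85 ± 0.63 SE, adjusted p = 5.89e-06). In Pali wild type it measured 20.8 and 17.1 and then 86.3 and 46.7 and was not called (1.56, adjusted p = 0.0807), although its libraries did not overlap. Sfrp4 fell in C129 from 198 and 162 to 51 and 30.5 (-2.07 ± 0.24 SE, adjusted p = 1.73e-06). Dkk2, which measured 8.77 and 4.27 at day 0 and 29.1 and 14.4 at day 8 in Pali wild type, rose there by 1.27 (adjusted p = 0.0391). Without 1 library Dkk2 was at 0.84 to 1.69, and the call was lost in some of these fits. Dkk3 was called in neither line. Sfrp1, which binds Wnts outside the cell, measured 3832 and 2657, then 1778 and 1616, then 5969 and 5234 at days 0, 4 and 8 in C129. It was lower at day 4 (-0.91 ± 0.23 SE, adjusted p = 0.00636) and higher at day 8 (0.81 ± 0.23 SE, adjusted p = 0.00861) than at day 0. Without 1 library Sfrp1 was at -1.17 to -0.65 and 0.54 to 1.07, and each call was lost in some of these fits. In Pali wild type it measured 2774 and 3628, then 1632 and 2403, then 3431 and 2402, and the day 4 difference from day 0 was -0.68 ± 0.23 SE, adjusted p = 0.0379, or -0.40 and not called without day 4 replicate 1.

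The target and TCF genes did not move as a block. Nkd1, a target that restrains Dishevelled, lies at chr8:88521354-88594884 on the plus strand of GRCm38. It measured 48.2 and 85.4, then 176 and 181, then 326 and 271 at days 0, 4 and 8 in Pali wild type. In C129 it measured 55.3 and 51.4, then 133 and 169, then 1254 and 1157. The day 8 rise was 2.14 ± 0.26 SE, adjusted p = 1.16e-05 in Pali and 4.40 ± 0.26 SE, adjusted p = 1.03e-09 in C129. The 2 lines overlapped at day 0 and stood apart at day 8, with C129 higher. Lgr5, an R-spondin receptor and target, measured 15.1 and 18.2 at day 0 and 111 and 135 at day 8 in C129 (2.62 ± 0.40 SE, adjusted p = 3.29e-05). In Pali wild type it measured 13.2 and 13.9 and then 31.1 and 26.7 and was not called (0.91, adjusted p = 0.111).

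Sp5, a repressor of the Sp family whose upstream sequence is printed here, fell at day 4 in Pali wild type. There it measured 43.8 and 142, then 5.44 and 8.78, then 125 and 28.9 at days 0, 4 and 8. In C129 it measured 12.6 and 29.3, then 1.23 and 18.9, then 158 and 307. The day 4 difference from day 0 in Pali was -2.93 ± 0.74 SE, adjusted p = 0.00626, and the day 8 difference in C129 was 3.25 ± 0.74 SE, adjusted p = 0.00144. Notum, an enzyme that inactivates Wnts, measured 263 and 269 and then 57.6 and 43.6 in C129 (-2.32 ± 0.73 SE, adjusted p = 0.0144). In Pali wild type it measured 441 and 466 at day 0, 83.4 and 53.8 at day 4 and 263 and 132 at day 8, with a day 4 difference from day 0 of -2.69 ± 0.73 SE, adjusted p = 0.0101. Without 1 library Notum was at -2.50 to -2.13 in C129 at day 8 and -2.98 to -2.39 in Pali at day 4. The day 4 difference of Sp5 in Pali was then at -3.73 to -2.12. Each of these calls was lost in at least 1 such fit. Tcf7, the TCF1 gene, was the most abundant of these 8 per kilobase at every day in both lines. It measured 619 and 684 and then 1234 and 1509 in Pali and 491 and 557 and then 1128 and 1225 in C129, and rose by 1.06 and 1.16 (adjusted p = 0.000139 and 1.52e-05).

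Tcf7l1, which encodes the repressor TCF3 of stem cells, measured 144 and 128 and then 176 and 195 in Pali wild type. It measured 119 and 171 and then 294 and 336 in C129, where it rose by 1.11 ± 0.23 SE, adjusted p = 0.000714. Lef1 measured 164 and 350.4 and then 1419 and 855 in Pali, and 118 and 18.5 and then 529.6 and 369.8 in C129 (3.09 ± 1.22 SE, adjusted p = 0.0467, and 1.87 and not called without C129 day 0 replicate 2). Axin2, a widely used readout of canonical signalling, could not be followed here. Its duplicates were 0 and 130.3 at day 0 and 122 and 6.67 at day 8 in Pali wild type and 19.6 and 287 in Pali1_sKO at day 8, and 12 of its 30 values were 0. Duplicates of 6 members differed more than 8-fold in at least 1 group in which 1 of them reached 100. Axin2 was called in none of the 23 comparisons.

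**Figure D3:**
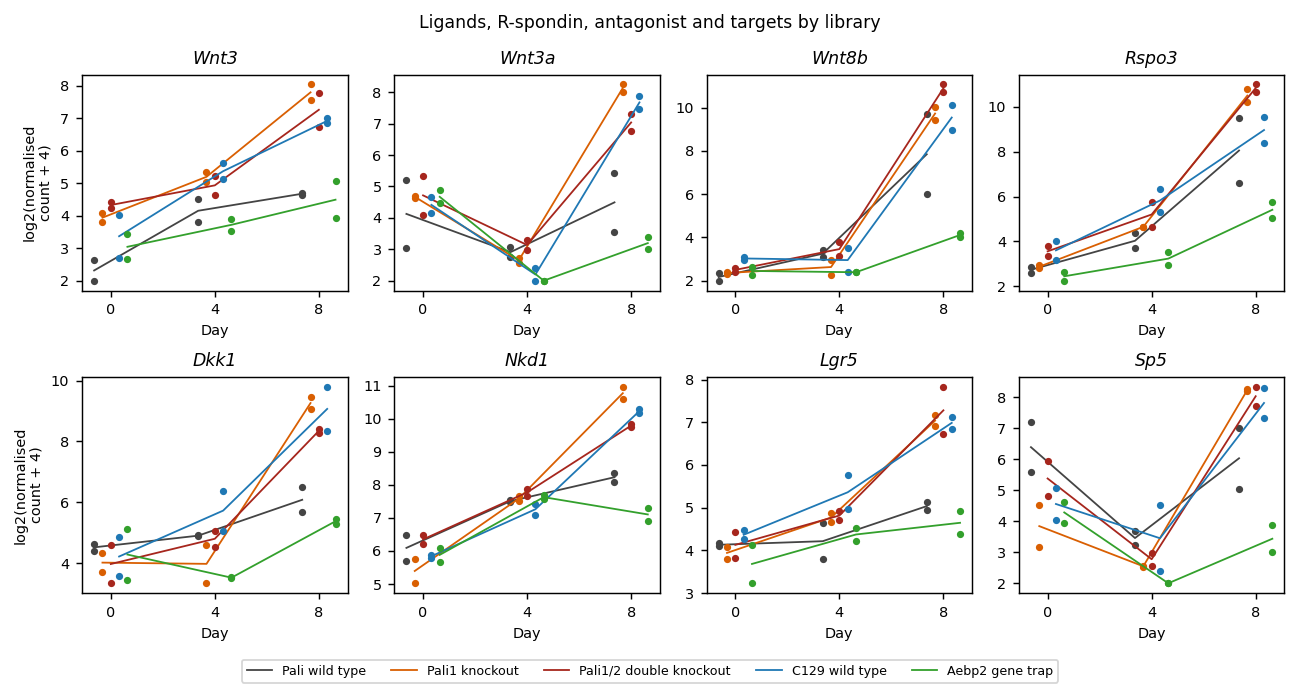
Level of 8 members at days 0, 4 and 8 (horizontal axis) as log2(normalised count + 4) (vertical axis), with 1 point per library and lines through the group means. At day 8 the points of both Pali mutants and C129 lie above those of the Aebp2 gene trap in each panel, with Pali wild type between or overlapping them.

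Of the 3 days, day 8 had the most members called between the 2 wild types. C129 was higher than Pali wild type in 13 members and lower in 3 (of all genes, 8.86% higher and 8.49% lower, 17.3% in all), with a median of 0.76 over members and 0.02 over all genes. At day 0 the counts were 4 and 2 (of all genes, 12% higher and 9.06% lower, 21.1% in all) and at day 4, 5 and 1 (of all genes, 8.35% higher and 7.57% lower, 15.9% in all). Nkd1 led at day 8, higher in C129 by 2.00 ± 0.26 SE, adjusted p = 3.81e-05. Lgr5 was higher by 1.95 ± 0.40 SE, adjusted p = 0.00231 and Dkk1 by 2.99 ± 0.63 SE, adjusted p = 0.00295. The day 8 libraries of these 3 genes did not overlap between the lines. Without C129 day 8 replicate 2 the 16 calls became 6, and without Pali wild type day 8 replicate 2 they became 11. Fzd10, Lgr5, Nkd1, Wnt3 and Wnt3a were the 5 called without any 1 of the 4 libraries. Wnt6, Fzd7 and Sfrp4 were lower in C129 at day 8, by 1.83, 0.47 and 0.74. Without C129 replicate 2 Wnt6 was at -0.95 and Sfrp4 at -0.40, and without Pali wild type replicate 2 Fzd7 was at -0.19, none of them called.

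At the earlier days fewer members separated the wild types. At day 0 Wnt6 measured 42.8 and 22.1 in C129 and 2.19 and 3.20 in Pali wild type (2.39 ± 0.44 SE, adjusted p = 0.000762). Fzd8, at 135 and 126 against 75.6 and 62, and Sfrp5, at 64.2 and 96.4 against 7.67 and 10.7, were also higher in C129 at day 0, by 0.89 and 2.66. Sfrp4 was higher as well, at 198 and 162 against 93.2 and 91.9, and Fzd7 and Fzd2 were lower, by 0.52 and 0.80, though Fzd2 was at -0.51 and not called without C129 replicate 1. At day 4 Wnt8a measured 137 and 153 in C129 and 29.9 and 22 in Pali wild type (2.33 ± 0.52 SE, adjusted p = 0.00483), and Wnt4 36.9 and 44 against 101 and 111 (-1.31 ± 0.25 SE, adjusted p = 0.00146). Sfrp4, Fzd10, Sfrp2 and Fzd8 were also higher in C129 at day 4, by 1.70, 1.34, 1.05 and 0.70.

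In the Pali1 knockout at day 8, 13 members were higher and 3 lower than in Pali wild type (of all genes, 7.07% higher and 6.52% lower, 13.6% in all), and 35 of 44 had a positive difference. The median was 0.88 over members and 0.04 over all genes tested. Higher were 3 of 15 ligands, 3 of 10 Frizzled receptors, 2 of 4 R-spondins, 2 of 4 Sfrp genes, Dkk1, and the targets Nkd1 and Lgr5. Lower were Fzd7, Sfrp4 and Notum. The largest called difference was that of Wnt3a. Without Pali1_sKO day 8 replicate 2 the 16 calls became 9, and without Pali wild type day 8 replicate 2 they became 11. The 9 called without any 1 of the 4 libraries were Dkk1, Fzd7, Fzd8, Fzd10, Lgr5, Nkd1, Sfrp5, Wnt3 and Wnt3a. A fit to these 4 libraries alone, which has 2 residual degrees of freedom instead of 15, called 0 members with limma and had 22 at an unadjusted p under 0.05. For this and later counts at an unadjusted p the share of all genes was not computed. They are therefore not read as results about the members.

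Among the ligands at day 8, Wnt3 stood at 184 and 260.1, against 22.1 and 21.1 in Pali wild type. Wnt3a stood at 256 and 301, against 39.1 and 7.78 in the control. Both genes stood apart between the lines, at 3.12 ± 0.48 SE, adjusted p = 0.000366 and 3.64 ± 0.60 SE, adjusted p = 0.000601. Wnt8a, at 286 and 280.4 against 90.3 and 73.3, was higher by 1.75 ± 0.52 SE, adjusted p = 0.0309. Wnt8b measured 681 and 1042 against 821 and 60.0, so that the groups overlapped and the gene was not called (1.88, adjusted p = 0.105). The other 11 tested ligands were not called, and 14 of 15 had positive differences.

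Of the receptors, Fzd10 measured 1445 and 2221 in the knockout and 529 and 343 in the wild type (2.06 ± 0.27 SE, adjusted p = 9.09e-05). Fzd3 measured 8301 and 11896 against 4083 and 2502, and Fzd8 889 and 752 against 374 and 409, and both were higher, by 1.64 and 1.06. Fzd7 went the other way, at 3639 and 3229 against 4687 and 6977 (-0.74 ± 0.14 SE, adjusted p = 0.0014). The groups did not overlap for any of these 4 receptors. Rspo3 measured 1186 and 1747 against 708 and 94.5 (2.45 ± 0.67 SE, adjusted p = 0.0199), and Rspo2 302 and 496 against 225 and 17.8 (2.47 ± 0.72 SE, adjusted p = 0.0288). The wild-type duplicates of both R-spondins spread far more than the knockout's. Without Pali wild type replicate 2 the differences were 1.02 and 0.77 and neither was called, and without replicate 1 they were 3.87 and 4.17 and both were. Each was also lost without either knockout library. The difference of Fzd7 was -0.45 without Pali wild type replicate 2 and still called.

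Of the secreted antagonists, Dkk1, Sfrp5 and Sfrp1 were higher. Dkk1 measured 702 and 529, against 86.3 and 46.7 in Pali wild type (3.18 ± 0.63 SE, adjusted p = 0.0026). Sfrp5 measured 122 and 109 against 4.01 and 37.8 (2.70 ± 0.55 SE, adjusted p = 0.00289), and Sfrp1 5536 and 4293 against 3431 and 2402 (0.76 ± 0.23 SE, adjusted p = 0.0369). Sfrp4 was lower, at 34.8 and 36.6 against 83.3 and 56.7 (-0.88 ± 0.24 SE, adjusted p = 0.0215). No antagonist called here overlapped between the lines. Sfrp1 was higher by 0.51 and not called without Pali wild type replicate 2, and Sfrp5 by 1.51 and still called without replicate 1.

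Among the targets, Nkd1 measured 1536 and 1999.9 in the knockout against 326 and 271 in Pali wild type, the lowest adjusted p of any member in this comparison (2.54 ± 0.26 SE, adjusted p = 1.07e-05). Lgr5 measured 140.3 and 116 against 31.1 and 26.7 (2.00 ± 0.40 SE, adjusted p = 0.0027). Both stood clear of the wild type. Sp5 measured 289 and 304 against 125 and 28.9, with no overlap but above the threshold (2.20, adjusted p = 0.057). Notum was lower, at 76.1 and 7.11 against 263 and 132 (-2.68 ± 0.73 SE, adjusted p = 0.0197), but by 1.25 and not called without Pali1_sKO replicate 2, and by 4.10 without replicate 1. The remaining readouts were not called, with Tcf7 at 1163 and 1019, Tcf7l1 at 202 and 158, Lef1 at 435 and 594 and Axin2 at 19.6 and 287.

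At day 0 the Pali1 knockout differed from Pali wild type in 1 member (of all genes, 3.04% higher and 1.75% lower, 4.79% in all). That was Sfrp1, at 6529 and 5991 against 2774 and 3628 (0.98 ± 0.23 SE, adjusted p = 0.0214). At day 4 Sfrp1 and Wnt8a were higher (of all genes, 1.07% higher and 1.6% lower, 2.67% in all). Sfrp1 measured 3869.9 and 4015 against 1632 and 2403 (0.99 ± 0.23 SE, adjusted p = 0.0292) and Wnt8a 136 and 152 against 29.9 and 22 (2.32 ± 0.52 SE, adjusted p = 0.0196). Neither gene overlapped between the lines. At day 0 Sfrp1 was called without Pali wild type replicate 2 and in none of the other 3 such fits (adjusted p of up to 0.171). The number of calls at day 0 became 2 without Pali wild type replicate 1 and 0 without Pali1_sKO replicate 1. The 2 day 4 calls became 1 without Pali wild type replicate 2 and 0 without each of the other 3 libraries. Limma had 8 members at an unadjusted p under 0.05 at day 0 and 6 at day 4, again with no share of all genes beside them.

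In the double knockout at day 8, 10 members were higher and 1 lower than in Pali wild type (of all genes, 4.13% higher and 3.08% lower, 7.21% in all), with a median of 0.54 over members and 0.03 over all genes. Higher were the ligands Wnt3, Wnt3a and Wnt8b, the R-spondins Rspo1, Rspo2 and Rspo3, the antagonist Dkk1, the targets Nkd1 and Lgr5, and Tcf7l1. Fzd7 was lower. The double knockout and the Pali1 knockout share the same wild-type libraries, so the values of both are set side by side and no overlap of their calls is counted. The 11 calls became 4 without Pali wild type replicate 2, 3 without Pali_dKO replicate 1 and 2 without Pali_dKO replicate 2, and Nkd1 was the member called in each of these fits. A fit to the 4 libraries alone called 0 members with limma and had 12 at an unadjusted p under 0.05, with no share of all genes computed.

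Wnt3 measured 102 and 218 in the double knockout at day 8, against 22.1 and 21.1 in Pali wild type (2.58 ± 0.48 SE, adjusted p = 0.00403). Wnt3a measured 155 and 105 against 39.1 and 7.78 (2.54 ± 0.60 SE, adjusted p = 0.0163), and Wnt8b 2152 and 1672 against 821 and 60.0 (3.05 ± 0.74 SE, adjusted p = 0.0195). None of the 3 ligands overlapped between the lines. Rspo3 measured 2037 and 1619 against 708 and 94.5 (2.78 ± 0.67 SE, adjusted p = 0.0186). Rspo2 measured 690.1 and 431 against 225 and 17.8 (2.96 ± 0.72 SE, adjusted p = 0.0195), and Rspo1 883 and 679 against 327 and 133 (1.87 ± 0.46 SE, adjusted p = 0.0211). For all 3 R-spondins the higher wild-type library was replicate 1, the one with the lower endoderm sum. Without Pali wild type replicate 2 the differences were 1.35 for Rspo3, 1.26 for Rspo2, 1.23 for Rspo1, 1.20 for Wnt8b and 1.61 for Wnt3a, and none of the 5 was called. Without replicate 1 they were 4.21 for Rspo3, 4.66 for Rspo2 and 4.89 for Wnt8b, all called.

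Nkd1 measured 918 and 855 in the double knockout against 326 and 271 in the wild type (1.56 ± 0.26 SE, adjusted p = 0.00183). Lgr5 measured 102 and 223 against 31.1 and 26.7 (2.24 ± 0.40 SE, adjusted p = 0.00311), and Dkk1 306 and 338 against 86.3 and 46.7 (2.27 ± 0.63 SE, adjusted p = 0.0376). These targets and the antagonist stood apart from the wild type. Tcf7l1 measured 346 and 337 against 176 and 195 (0.87 ± 0.23 SE, adjusted p = 0.0312), and Fzd7 3397 and 4123 against 4687 and 6977 (-0.61 ± 0.14 SE, adjusted p = 0.0115). Leaving out any 1 of the 4 libraries put Tcf7l1 at 0.79 to 0.94 and Dkk1 at 1.85 to 2.68, and neither was called. Without Pali wild type replicate 2 Fzd7 was at -0.32 and not called. Sp5, at 208 and 317 against 125 and 28.9, did not overlap and was not called (2.00, adjusted p = 0.119). The other readouts were not called, with Tcf7 at 928 and 1056, Lef1 at 482 and 850.4, Notum at 98.1 and 136 and Axin2 listed at 0 in both libraries.

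Tcf7l1 was called higher in the double knockout at each day, though the day 8 call was lost without any 1 library. It measured 413 and 299.7 against 144 and 128 in Pali wild type at day 0 (1.34 ± 0.23 SE, adjusted p = 0.00253) and 565 and 578 against 316 and 174 at day 4 (1.27 ± 0.23 SE, adjusted p = 0.00935). The day 4 difference was 0.84 and not called without Pali wild type replicate 2. The lines did not overlap at any of the 3 days. At day 0 Wnt4, Wnt3 and Fzd8 were also higher and Fzd5 and Sfrp1 lower (of all genes, 2.95% higher and 0.719% lower, 3.67% in all). Wnt4 measured 106 and 77.1 against 38.4 and 32 (1.28 ± 0.25 SE, adjusted p = 0.00574), Wnt3 17.2 and 15 against 2.19 and 0 (2.01 ± 0.48 SE, adjusted p = 0.0232) and Fzd5 2883 and 2889 against 4409 and 4562 (-0.64 ± 0.12 SE, adjusted p = 0.0049). Fzd8 measured 102 and 118 against 75.6 and 62 (0.65 ± 0.18 SE, adjusted p = 0.0465) and Sfrp1 1503 and 1653 against 2774 and 3628 (-1.01 ± 0.23 SE, adjusted p = 0.0198). No library of the double knockout lay within the wild-type range for these 5 genes. At day 4 Fzd8 and Sfrp1 were higher and Fzd7 lower (of all genes, 0.987% higher and 1.08% lower, 2.07% in all). Fzd8 measured 470.0 and 602 against 279 and 322 (0.82 ± 0.18 SE, adjusted p = 0.0238), Sfrp1 3746 and 4752 against 1632 and 2403 (1.09 ± 0.23 SE, adjusted p = 0.0238) and Fzd7 5197 and 5032 against 8067 and 7560.0 (-0.61 ± 0.14 SE, adjusted p = 0.0268).

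Of these early calls, Fzd5 at day 0 was the one kept without any 1 library. The 6 day 0 calls became 2 without Pali wild type replicate 2, 1 without Pali_dKO replicate 1 and 3 without Pali_dKO replicate 2. The 4 day 4 calls became 1 and 2 without Pali wild type replicate 1 and replicate 2, and 0 without Pali_dKO replicate 2. For Pali_dKO replicate 1 of days 0 and 4, title and description disagree on the culture state, and the title was followed.

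Set directly against each other, the double and the single knockout differed in few members. At day 0 Sfrp1 measured 1503 and 1653 in the double knockout against 6529 and 5991 in the single (-1.99 ± 0.23 SE, adjusted p = 0.000187), and at day 4 3746 and 4752 against 3869.9 and 4015 (not called, 0.10). Fzd2, at 358 and 414 against 149 and 210.1, and Tcf7l1, at 413 and 299.7 against 165 and 191, were higher in the double knockout at day 0 by 1.10 and 0.97 (of all genes, 2.04% higher and 1.04% lower, 3.07% in all). At day 4 Wnt8a measured 5.77 and 8.79 in the double against 136 and 152 in the single knockout (-3.73 ± 0.52 SE, adjusted p = 0.00095). Tcf7l1 was higher at that day, by 1.00, and Tcf7 lower, by 0.68 (of all genes, 0.929% higher and 0.452% lower, 1.38% in all). At day 8 Fzd10, Fzd8 and Fzd5 were lower in the double knockout (of all genes, 0.936% higher and 0.439% lower, 1.37% in all). Fzd10 measured 650.4 and 632 against 1445 and 2221 (-1.48 ± 0.27 SE, adjusted p = 0.00758), Fzd8 357 and 493 against 889 and 752 (-0.96 ± 0.18 SE, adjusted p = 0.00847) and Fzd5 1067 and 1236 against 1876 and 1624 (-0.60 ± 0.12 SE, adjusted p = 0.0141). None of the 3 receptors overlapped.

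These direct counts were small and rested on few libraries. The 3 day 0 calls became 1 without Pali_dKO replicate 2 or Pali1_sKO replicate 1, and the 3 day 4 calls became 1 without any 1 of the 4 libraries. The 3 day 8 calls became 0 without Pali_dKO replicate 1. Limma had 10 members at an unadjusted p under 0.05 at day 0, 6 at day 4 and 10 at day 8, with no share of all genes computed. Sfrp1 at day 0 and Wnt8a at day 4 were called without any 1 library. For Nkd1 at day 8, at 918 and 855 in the double and 1536 and 1999.9 in the single knockout, the difference was -0.98 (adjusted p = 0.0787).

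The Aebp2 gene trap had most members below its wild type at day 8. There 25 members were lower and 3 higher than in C129 wild type (of all genes, 9.59% higher and 10.6% lower, 20.1% in all), with a median of -1.69 over members and -0.01 over all genes. Lower were 8 of 15 ligands, 7 of 10 Frizzled receptors, 3 of 4 R-spondins, 3 of 4 Sfrp genes, Dkk1, and the targets Nkd1, Sp5 and Lgr5. Higher were Tcf7, Sfrp4 and Fzd5. Leaving out any 1 of the 4 libraries gave 19 to 27 calls, and 19 of the 28 were called in every such fit. Wnt5a, Wnt9b, Wnt10b, Wnt11, Fzd2, Fzd4, Fzd5, Sfrp2 and Sfrp4 were each lost in at least 1 of these fits. A fit to the 4 libraries alone called 0 members with limma and had 27 at an unadjusted p under 0.05, with no share of all genes computed.

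At day 8 the ligand Wnt8b measured 14.4 and 12.3 in the trap and 499.6 and 1096 in C129 wild type (-5.43 ± 0.74 SE, adjusted p = 6.04e-05). Wnt3a measured 6.38 and 4.09 against 175 and 230.4 (-4.48 ± 0.60 SE, adjusted p = 4.93e-05), and Wnt8a 7.18 and 5.73 against 166 and 68.1 (-3.41 ± 0.52 SE, adjusted p = 0.000159). The trap libraries of these 3 ligands lay far below both controls. Wnt3 measured 11.2 and 29.5 against 124 and 111 (-2.43 ± 0.48 SE, adjusted p = 0.0014). Wnt5a, Wnt9b, Wnt10b and Wnt11 were lower by 2.50, 2.07, 2.69 and 2.25 on the log2 scale, with group means of at most 14.5 in the trap. Without C129 replicate 2 Wnt9b was at -1.26 and not called. Wnt4 was the 1 of 15 tested ligands with a positive difference, and it was not called.

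Fzd10 measured 229.7 and 231 in the trap against 1261 and 1219 in C129 (-2.41 ± 0.27 SE, adjusted p = 8.22e-06). Fzd3 measured 1314 and 1773 against 6304 and 9003 (-2.30 ± 0.33 SE, adjusted p = 8.83e-05), and Fzd9 49.4 and 50.8 against 135 and 235 (-1.75 ± 0.27 SE, adjusted p = 0.000157). No trap library of these 3 receptors reached a control library. Fzd1, Fzd2, Fzd4 and Fzd8 were lower by 2.41, 0.73, 1.00 and 0.87, and Fzd4 was at -0.62 and not called without C129 replicate 2. Fzd5, the receptor that falls during differentiation of the wild types, was higher, at 1651 and 1832 against 1452 and 1288 (0.35 ± 0.12 SE, adjusted p = 0.0492), and Fzd7 was not called. Without 1 library Fzd5 was at 0.26 to 0.43, and the call was lost in most of these fits.

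Rspo2 measured 0.798 and 0 in the trap and 70.8 and 264 in C129 (-5.02 ± 0.72 SE, adjusted p = 9.61e-05). Rspo3 measured 29.5 and 49.9 against 326 and 748 (-3.55 ± 0.67 SE, adjusted p = 0.000969), and Rspo1 26.3 and 38.5 against 151 and 271 (-2.53 ± 0.46 SE, adjusted p = 0.000762). The R-spondins of the trap were all below the lower control library. Dkk1 measured 39.9 and 35.2 against 321 and 882 (-3.69 ± 0.63 SE, adjusted p = 0.000449), and Sfrp1 1298 and 2034 against 5969 and 5234 (-1.78 ± 0.23 SE, adjusted p = 4.48e-05). Sfrp2 and Sfrp5 were lower by 0.76 and 2.41, and Sfrp4 was higher, at 69.4 and 94.2 against 51 and 30.5 (0.96 ± 0.24 SE, adjusted p = 0.00822), and by 0.63 and not called without C129 replicate 2.

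Nkd1 had the lowest adjusted p of the members, at 116 and 154 in the trap against 1254 and 1157 in C129 (-3.13 ± 0.26 SE, adjusted p = 6.5e-07). Sp5 measured 3.99 and 10.6 against 158 and 307 (-4.37 ± 0.74 SE, adjusted p = 0.000399), and Lgr5 16.7 and 26.2 against 111 and 135 (-2.34 ± 0.40 SE, adjusted p = 0.000446). All 3 targets were separated from the control. Tcf7 went the other way, at 2341 and 1979 against 1128 and 1225 (0.87 ± 0.17 SE, adjusted p = 0.00105). Tcf7l1 at 345 and 403, Lef1 at 288 and 460.5, Notum at 121 and 83.5 and Axin2 at 11.2 and 0 were not called.

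The trap differed from C129 before day 8 in fewer members. At day 0, 5 were lower and 1 higher (of all genes, 5.23% higher and 7.78% lower, 13% in all). Fzd8 measured 41.8 and 39.2 against 135 and 126 (-1.60 ± 0.18 SE, adjusted p = 2.3e-05), and Dkk2 0 and 2.30 against 13.8 and 14.3 (-1.85 ± 0.43 SE, adjusted p = 0.00853). Fzd1 measured 7.92 and 14.6 against 49.1 and 38.4 (-1.67 ± 0.43 SE, adjusted p = 0.0147). These 3 members were lower without overlap. Sfrp2, at 222 and 171 against 372 and 353, and Fzd7, at 1770.0 and 1735 against 2248 and 2492, were lower by 0.89 and 0.43. Tcf7, at 906 and 701 against 491 and 557, was higher by 0.60. Fzd8 was the one called without any 1 library, while the 6 calls became 3 without Aebp2_Gt replicate 1 and 1 without C129 replicate 1. The share of members called at day 0 lay near that of all genes.

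At day 4, 8 members were lower and 2 higher in the trap (of all genes, 4.05% higher and 4.96% lower, 9.01% in all). Fzd10 measured 91.4 and 139 against 693 and 487 (-2.32 ± 0.27 SE, adjusted p = 9.17e-05), and Wnt8a 20.3 and 7.31 against 137 and 153 (-3.17 ± 0.52 SE, adjusted p = 0.00114). Wnt7b measured 3.81 and 8.54 against 75.2 and 83.1 (-3.07 ± 0.75 SE, adjusted p = 0.016). The groups did not overlap for these 3 members. Rspo3 measured 7.62 and 3.65 against 35.7 and 76.7 (-2.59 ± 0.67 SE, adjusted p = 0.0215), and Dkk1 7.62 and 7.31 against 29.6 and 79.2 (-2.21 ± 0.63 SE, adjusted p = 0.0372). Wnt3 measured 7.62 and 11 against 30.8 and 45.3 (-1.65 ± 0.48 SE, adjusted p = 0.0387), and Sfrp1 753 and 834 against 1778 and 1616 (-1.09 ± 0.23 SE, adjusted p = 0.00721). Fzd8 was lower by 0.69. The higher members were Tcf7l1, at 429 and 458 against 225 and 245 (0.90 ± 0.23 SE, adjusted p = 0.0215), and Tcf7, at 2736 and 2023 against 1511 and 1708 (0.55 ± 0.17 SE, adjusted p = 0.0461), the latter at 0.33 and not called without trap replicate 1. The 10 calls became 2 and 6 without trap replicates 1 and 2 and 2 and 4 without C129 replicates 1 and 2, and Fzd10 and Wnt8a were called each time. Nkd1 was not called at day 4, at 186 and 202 in the trap and 133 and 169 in C129.

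The double knockout and the gene trap have separate controls, so their day 8 differences could be compared in 1 test. Nkd1 measured 918 and 855 in the double knockout and 326 and 271 in its wild type, against 116 and 154 in the gene trap and 1254 and 1157 in its own. The difference from the own wild type was greater in the double knockout for 24 members and greater in the gene trap for 4 (of all genes, 13.4% higher and 10.6% lower, 24% in all), with a median of 2.14 over members and 0.05 over all genes. The 24 held 8 of 15 ligands, 6 of 10 Frizzled receptors, 3 of 4 R-spondins, 3 of 4 Sfrp genes, Dkk1, Nkd1, Lgr5 and Sp5, and the 4 were Fzd5, Fzd7, Sfrp4 and Tcf7. The distance was 4.70 ± 0.36 SE, adjusted p = 3.33e-07 for Nkd1, 4.58 ± 0.57 SE, adjusted p = 1.83e-05 for Lgr5 and 7.02 ± 0.84 SE, adjusted p = 1.4e-05 for Wnt3a. Leaving out any 1 of the 8 libraries gave 23 to 30 calls, with 25 without Pali wild type replicate 2, and 22 of 28 were called each time. The 2 comparisons also differ in the wild type they start from. Nkd1, for one, measured 326 and 271 in Pali wild type and 1254 and 1157 in C129. The effect of a mutation and the background of its line cannot be told apart beyond this contrast, and the same test was not run for the Pali1 knockout.

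**Figure D4:**
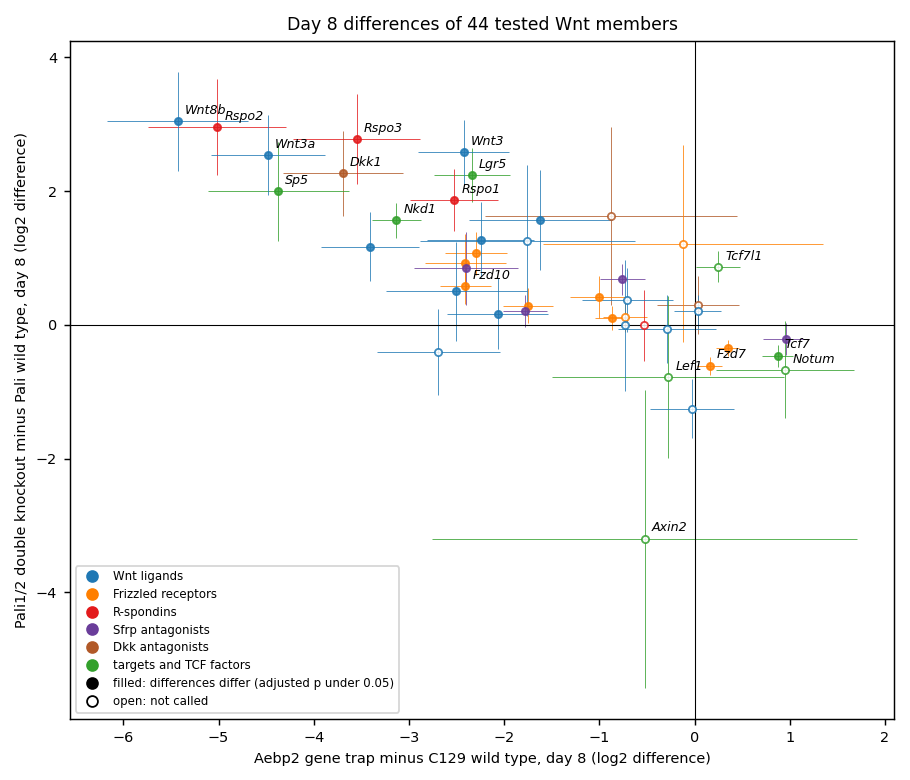
Log2 difference of each of 44 tested members at day 8 in the double knockout from Pali wild type (vertical axis) against that in the Aebp2 gene trap from C129 wild type (horizontal axis), with bars of 1 SE and colours by role. The named ligands and R-spondins and the targets Nkd1, Lgr5 and Sp5 lie at the upper left, such as Nkd1 at 1.56 and -3.13. The other named targets and TCF factors, Tcf7, Tcf7l1, Lef1, Notum and Axin2, do not. Filled points passed the test of the difference between the axes.

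The change from day 0 to day 8 was also compared between lines. It was greater in the Pali1 knockout than in Pali wild type for 8 members and smaller for 2 (of all genes, 2.7% higher and 3.02% lower, 5.73% in all), led by Nkd1 (3.24 ± 0.36 SE, adjusted p = 0.000216). Sp5, which fell short of the threshold at day 8 alone, measured 4.96 and 18.9 at day 0 and 289 and 304 at day 8 in the knockout, and its change exceeded that of the wild type by 4.75 ± 1.05 SE, adjusted p = 0.0143. In the double knockout 0 of 44 members differed in this way from the wild type by limma (of all genes, 0.426% higher and 0.694% lower, 1.12% in all), with 17 at an unadjusted p under 0.05. These shares are of adjusted calls, and none was computed for the unadjusted count. In the gene trap 14 members changed less than in C129 and 2 more (of all genes, 8.66% higher and 6.61% lower, 15.3% in all), led by Nkd1 (-3.17 ± 0.36 SE, adjusted p = 5.3e-05), Fzd10 (-2.34) and Fzd3 (-2.86).

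In the trap Fzd10 measured 602 and 667 at day 0 and 229.7 and 231 at day 8, and Fzd3 899 and 867 and then 1314 and 1773. Nkd1 measured 64.4 and 46.8 and then 116 and 154, and Sp5 11.3 and 20.7 and then 3.99 and 10.6. All 4 members rose by day 8 in C129. Fzd7, at 1770.0 and 1735 and then 4733 and 4452, and Dkk2, at 0 and 2.30 and then 13.6 and 18.8, changed more in the trap, by 0.59 and 1.88. Without 1 library Fzd7 was at 0.52 to 0.66 and called in no fit. Dkk2 was at 1.34 to 2.42 and lost in most of these fits. In the Pali1 knockout Dkk1 measured 16.1 and 8.96 at day 0 and 702 and 529 at day 8, and Fzd5 3759.7 and 3330.1 and then 1876 and 1624. The change of Dkk1 exceeded that in Pali wild type by 3.68 and that of Fzd5, a smaller fall, by 0.59. Without 1 library Dkk1 was at 3.27 to 4.10 and Fzd5 at 0.46 to 0.73, and both were lost in most of these fits.

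These tests of the course depended on single libraries. For the Pali1 knockout the 10 calls became 4, 5 and 2 without Pali wild type day 8 replicate 2, day 0 replicate 1 and day 0 replicate 2. They became 6, 1, 2 and 6 without Pali1_sKO day 8 replicates 1 and 2 and day 0 replicates 1 and 2, and Nkd1 was called in every fit. For the double knockout the 0 calls stayed at 0 without Pali wild type day 8 replicate 2 and became 5 without day 8 replicate 1, and 1 without Pali wild type day 0 replicate 1 or Pali_dKO day 8 replicate 1. For the gene trap the 16 calls became 8 without its day 8 replicate 1, 10 without C129 day 8 replicate 2, and 9 and 10 without C129 day 0 replicates 1 and 2.

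Other genes of the pathway formed a list of 58, of which 55 were tested. At day 8, 10 were higher and 2 lower in the Pali1 knockout (13.6% of all genes called), 4 higher and 2 lower in the double knockout (7.21%), and 3 higher and 14 lower in the gene trap (20.1%), with medians of 0.17, 0.16 and -0.20 against 0.04, 0.03 and -0.01 over all genes. Apcdd1, a membrane-bound inhibitor of Wnt signalling, measured 221 and 143 in Pali wild type, 1991 and 2468 in the Pali1 knockout, 790.3 and 481 in the double knockout, 505 and 1141 in C129 and 125 and 111 in the gene trap. It was higher in both Pali mutants (3.61 ± 0.30 SE, adjusted p = 1.78e-06, and 1.77 ± 0.30 SE, adjusted p = 0.00194) and lower in the trap (-2.65 ± 0.30 SE, adjusted p = 8.22e-06). Vangl2, a planar polarity protein, was higher in both Pali mutants and lower in the trap, at 1.18, 0.62 and -1.27. Celsr1, also of planar polarity, was higher in the Pali1 knockout by 1.66, where Lgr4 and Dact2 were lower by 0.76 and 1.75. In the double knockout Sostdc1 was higher by 1.26, and Tnks2 was lower by 0.44. Apc2, also called lower, was listed at 0 in both double knockout libraries and measured 89.3 and 90.0 in Pali wild type.

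Ror2, a receptor of non-canonical Wnts, had the lowest adjusted p of this list in the gene trap, at 71.8 and 68 against 1139 and 1110.0 in C129 (-3.93 ± 0.30 SE, adjusted p = 2.82e-07). Lgr4, Vangl1 and Dact2 were higher there by 0.85, 0.82 and 1.32. From day 0 to day 8, 17 of the 55 rose and 2 fell in Pali wild type (25.8% of all genes called) and 27 rose and 6 fell in C129 (45.8%). Ror1, a receptor related to Ror2, rose in both, by 3.56 in Pali and 3.87 in C129. Frzb, a secreted Wnt binder, and Prickle1, of planar polarity, rose by 5.77 and 2.74 in Pali, and Vangl2 and Csnk1d by 1.92 and 1.23 in C129. Vangl1 and Csnk1a1 fell in Pali by 0.70 and 0.34, and Lgr4, Porcn and Csnk1a1 in C129 by 0.93, 1.65 and 0.61.

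Genes of the primitive streak and posterior embryo that depend on Wnt formed a list of 12, of which 9 were tested. At day 8, 4 were higher and 0 lower in the Pali1 knockout (13.6% of all genes called) and likewise in the double knockout (7.21%), and in the gene trap 3 were lower and 0 higher (20.1%), with medians of 1.29, 1.54 and -1.04 over the 9. T, the brachyury gene of the streak, measured 0 and 5.56 in Pali wild type, 257 and 177 in the Pali1 knockout and 130.5 and 394 in the double knockout (5.13 ± 1.12 SE, adjusted p = 0.00517, and 5.23 ± 1.12 SE, adjusted p = 0.00996). Mixl1 measured 14 and 18.9, then 136 and 141, then 105 and 247 in the same lines (2.81 and 3.03). Evx1 measured 27.2 and 8.13 in the single and 38.6 and 111 in the double knockout, while both wild-type libraries listed it at 0. Fgf8, a signal of the streak, measured 11.6 and 6.33 in the gene trap and 86.1 and 62.1 in C129 (-2.61 ± 0.55 SE, adjusted p = 0.0024). T was not called there, at 7.18 and 0 against 41.6 and 0. In the test of the double knockout against the gene trap, 6 of the 9 were called upwards and 0 downwards (24% of all genes called).

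Markers of cell types differed between the lines beside the members. Day 8 sums over 8 pluripotency markers were 50205 and 40873 in Pali wild type, 28126 and 23334 in the Pali1 knockout, 30713 and 29501 in the double knockout, 22256 and 15519 in C129, and 47571 and 45149 in the gene trap. Sums over 7 neural markers were 5245 and 4024, 11140 and 13144, 11147 and 9901, 8808 and 8404, and 3868 and 5314 in the same order. At day 8 the Pali mutants thus had lower pluripotency and higher neural sums than their wild type, and the gene trap a higher pluripotency and a lower neural sum than C129. Day 0 pluripotency sums were 86296 and 86245 in Pali wild type. They were 78992 and 74622 in the Pali1 knockout and 63819 and 60620 in the double knockout. Day 0 neural sums were 1029 and 2249, 1609 and 2082, and 2682 and 4154 in the same order. The double knockout thus already stood apart in both sums at day 0. Of the pluripotency markers 5 of 8 were lower at day 8 in the Pali1 knockout, 4 in the double knockout, and 7 higher in the gene trap. Of the 7 neural markers 4 were higher in the Pali1 knockout, 3 higher in the double knockout and 4 lower in the gene trap. In the gene trap 3 of 4 markers of primed epiblast were higher. Sums over 10 markers of extraembryonic endoderm were 303.3 and 12531 in Pali wild type and 797 to 4954 in the other day 8 groups, and sums over 7 fibroblast markers ran from 805 to 3937 in all of them. The part of these cell types in the differences of the Wnt members was not tested.

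Some members were called in no comparison of a mutant with a wild type at any day, 10 of the 44 tested. They were the ligands Wnt2b, Wnt5b, Wnt6, Wnt7a and Wnt9a, the receptor Fzd6, Rspo4, Dkk3, Lef1 and Axin2, and 6 of them were called in none of the 23 comparisons. Fzd6 measured 28.1 and 25.6 in Pali wild type, 571 and 45.7 in the Pali1 knockout, 101 and 44.7 in the double knockout, 24.6 and 151 in C129 and 179 and 16.4 in the gene trap at day 8. Dkk3 measured 85.3 and 0 in Pali wild type and 0 and 49.8 in the Pali1 knockout, so that 1 library of each was listed at 0. Lef1, a TCF-family activator, measured 0 and 247 in the Pali1 knockout at day 0 and 1419 and 855 in Pali wild type at day 8. Duplicates of Axin2 and Fzd6 differed more than 8-fold in 4 groups each, and those of Lef1 and Wnt9a in 1, with 1 library of at least 100. Wnt10a, below the filter, measured 8.81 and 7.16 in C129 at day 0 and at most 8.81 anywhere.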

How the data were processed

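The authors deposited 1 table of normalised counts (a signal per gene that is not whole) for 20563 mouse genes in 30 libraries. Total RNA libraries were depleted of ribosomal RNA and stranded, per the labels' protocols. Of tools, DESeq2, HISAT2 2.0.5 and kallisto 0.43.1 appear in the submitters' processing notes without a role, and so does the build mm10. Whole reads could not be recovered, since 82.3 to 86.1% of low values (under 8 steps) lay within 0.001 of a whole step, so no count model was used.

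Values were tested with limma 3.58.1 in R 4.3.3 on log2(value + 4), with 1 mean for each of 15 groups, trend and robust moderation, 15 residual degrees of freedom and 23 comparisons. The 15712 genes that reached 10 in 2 or more libraries were tested two-sided, with Benjamini-Hochberg adjustment within each comparison and a threshold of 0.05. The number of 2 libraries a group limits the precision, and the p-values measure the spread between cultures the labels call biological duplicates. Gene models came from GENCODE M21 and promoters from RefSeq. The method was tested on simulated data built on 15712 genes of the day 8 comparison of Pali_dKO with Pali wild type. It recovered 62 of 100 genes changed 2-fold and 84 of 100 changed 4-fold, with 8 false calls. Genes averaging below 50 were left unchanged in this simulation. The shares thus come from better expressed genes and were not split further by level. They do not give the recovery of low members, such as Wnt3a and Rspo2, with medians of 13.5 and 0.725 over the 30 libraries.

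By rule, values by library go to the 8 targets and TCF factors and to called members, up to 10 with the lowest adjusted p in each direction of a comparison (the main ones here, and differences alone for the rest), and up to 3 pathway genes in each direction are named. The members and the lists were chosen with earlier results of these data known. Alternatives were other offsets, filters, rescalings and moderation, the libraries of the groups compared alone, a replicate block, leaving out each library and, chosen after seeing the data, leaving out genes with discordant duplicates.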

Additional observations from a re-analysis of the deposited data

Results flagged for a closer look

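Some members differed between lines in a test of the difference between 2 effects, and their log2 differences from limma are given here. The change from day 0 to day 8 was greater in the Pali1 knockout than in Pali wild type for Nkd1 (3.24), Sp5 (4.75), Fzd10 (1.68), Dkk1 (3.68), Fzd3 (1.79), Lgr5 (2.19), Wnt3a (3.10) and Fzd5 (0.59). It was smaller for Fzd7 (-0.84) and Sfrp4 (-1.23). The adjusted p ran from 0.000216 to 0.0477. The same change was smaller in the Aebp2 gene trap than in C129 wild type for Nkd1 (-3.17), Fzd10 (-2.34), Fzd3 (-2.86), Wnt3a (-4.74), Fzd9 (-1.95), Wnt8b (-4.85), Rspo2 (-4.55), Dkk1 (-3.76), Sp5 (-4.10), Sfrp1 (-1.25), Wnt11 (-2.85), Wnt10b (-3.00), Rspo1 (-2.11) and Wnt3 (-2.10). It was greater for Fzd7 (0.59) and Dkk2 (1.88). The adjusted p ran from 5.3e-05 to 0.0457. Without 1 library, Lgr5 in the Pali1 knockout and Fzd7 in the gene trap were called in no fit. Dkk1, Fzd3, Fzd5, Sfrp4 and Wnt3a in the Pali1 knockout were lost in most of these fits. So were Dkk2, Rspo1, Wnt3, Wnt10b and Wnt11 in the gene trap. The day 8 difference of the double knockout from Pali wild type exceeded that of the gene trap from C129 for Nkd1 (4.70), Wnt3a (7.02), Lgr5 (4.58), Wnt8b (8.48), Fzd10 (2.99), Rspo2 (7.98), Wnt3 (5.01), Fzd3 (3.37), Rspo1 (4.39), Rspo3 (6.33), Dkk1 (5.96) and Wnt8a (4.58). It did so too for Sp5 (6.37), Sfrp1 (1.99), Fzd1 (3.33), Fzd9 (2.04), Wnt11 (3.52), Sfrp2 (1.44), Sfrp5 (3.25), Fzd8 (0.97), Fzd4 (1.42), Wnt7b (3.19), Wnt9b (2.24) and Wnt5a (3.00). It was below that of the gene trap for Tcf7 (-1.33), Fzd5 (-0.70), Fzd7 (-0.77) and Sfrp4 (-1.18). The adjusted p ran from 3.33e-07 to 0.0453. Fzd4, Wnt5a, Wnt7b and Wnt9b were lost in most fits of this test without 1 library. In each of these 54 results the effects of mutation and of line cannot be told apart beyond the contrast with the own wild type.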

How the results depend on the processing

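No called member changed sign under any alternative. The counts of called members (1, 2 and 16 for the Pali1 knockout at days 0, 4 and 8, 6, 4 and 11 for the double knockout, 6, 10 and 28 for the gene trap) depended most on sharing the spread across all 15 groups. With only the libraries of the groups compared, each of these 9 counts became 0, as did the 3 counts of the double against the single knockout and those of C129 against Pali wild type at days 4 and 8. With the same restriction C129 against Pali wild type at day 0 gave 1, the Pali wild type course 8 at day 4 and 4 at day 8, and the day 0 to day 8 change 1 in the Pali1 knockout and 8 in the gene trap. The Pali1 knockout at day 0 gave 2 with an offset of 1, 2 with a mean filter of 50 and 3 without genes with discordant duplicates, and at day 4 it gave 1 with an offset of 1. The double against the single knockout gave 5 at day 0 with a mean of at least 50 and 6 without discordant genes, 1 at day 4 with no filter, and 6 at day 8 with an offset of 16. For the change in the double knockout the 0 calls became 3 with an offset of 16 and 1 with a mean of at least 50, with upper-quartile rescaling and without discordant genes. Replicate numbers are shared by the groups, but same-numbered libraries correlated at -0.06 to 0.11 with 1 of 19 over 0.1, so the numbers were not taken as pairs. With a replicate block the Pali1 knockout at day 0 gave 4 calls and the double against the single knockout at day 0 gave 5, and the other counts stayed within 1.5 times.

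Leaving out 1 library gave 0 to 2, 0 to 1 and 9 to 16 calls for the Pali1 knockout at days 0, 4 and 8, 1 to 5, 0 to 3 and 2 to 11 for the double knockout, and 1 to 4, 2 to 6 and 19 to 27 for the gene trap. It gave 1 to 4, 1 in each and 0 to 3 for the double against the single knockout, 4 to 6, 4 to 7 and 6 to 17 for C129 against Pali wild type, and 12 to 15 and 18 to 21 for the Pali wild type course. The C129 course gave 12 to 15 and 28 to 32, the day 0 to day 8 change 1 to 10, 0 to 5 and 8 to 15, and the double knockout against the gene trap 23 to 30. Of 266 single calls, 20 were lost with an offset of 1, 9 with an offset of 16 and 14 with no filter. Fits with no trend or robust moderation lost 7, upper-quartile rescaling 3, median-ratio rescaling 0 and the block 1. With a mean of at least 50, 3 were lost and 214 kept, and calls of members that this filter removed were not scored. With only the libraries of the groups compared, which leaves fewer degrees of freedom, 186 were lost. Over all fits without 1 library, calls were lost 386 times and kept 894 times. Rescaling moved the median of all genes by at most 0.03. With 2 libraries a group, a p above the threshold does not show that lines were alike.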
